A study of Mus musculus with 14 samples.

Results

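The CLIK148 by CpG interaction is, for each gene, the log2 response to CpG in dendritic cells pre-treated with CLIK148 minus the log2 response to CpG in dendritic cells pre-treated with solvent. It was computed within each replicate number and averaged over both, from a layout of 2 pre-treatments by 2 stimuli that takes 8 of the 14 arrays of the study and 4 of its 7 groups. The layout was set by the labels alone, and no measured value was used to choose the arrays. A value of -1 means that the fold response to CpG after CLIK148 was 0.5 of that in solvent, and a value of 0 means that both responses had the same size.

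The cells were bone marrow-derived dendritic cells of BALB/c mice, grown from marrow progenitors with recombinant GM-CSF for 8 days. The 4 groups were DMSO solvent (0.01%) without stimulus, DMSO with CpG at 25 µg/mL, CLIK148 at 5 µM without stimulus, and CLIK148 at 5 µM with CpG at 25 µg/mL. Pre-treatment lasted 1 h and the CpG followed. How long CpG acted before RNA was taken is not given in the labels. Each group had 2 arrays, from an experiment that the design text describes as performed independently 2 times, so that replicate 1 of every group is called experiment 1 and replicate 2 experiment 2. No untreated culture without DMSO or inhibitor enters the layout. The remaining 6 arrays, with the inhibitor CA074Me or with TNF-alpha, entered the brightness filter and the estimate of the spread between replicates, and are cited for a few genes and 1 correlation.

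CLIK148 is used as an inhibitor of cathepsin L, a cysteine protease of endosomes and lysosomes. CpG oligonucleotides are unmethylated DNA that Toll-like receptor 9 recognises inside endosomes, where the receptor is cleaved by endosomal proteases, cathepsins among them. The cleaved receptor signals through MyD88 to NF-kB, the MAP kinases and interferon regulatory factors, and dendritic cells answer with cytokines such as interleukin 12, chemokines, co-stimulatory molecules and interferon-stimulated genes. The layout therefore asks whether the transcripts that CpG raises or lowers do so by the same amount when CLIK148 is present.

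The cells carried transcripts of their label, some bright and some dimmer. Among the dimmer dendritic cell markers were Flt3, between 8.25 and 8.61 log2, and Cd209a, between 7.65 and 9.86. Itgax, the CD11c integrin chain, lay between 10.91 and 12.08 log2 in the arrays of the layout, Zbtb46, a transcription factor of conventional dendritic cells, between 10.14 and 10.47, and the MHC class II chain H2-Ab1 between 14.43 and 14.78. Macrophage and granulocyte transcripts were bright as well, with Csf1r between 14.05 and 14.75, Adgre1 between 12.37 and 12.89, S100a8 between 14.78 and 15.05 and Mpo between 10.74 and 11.75. The B-cell gene Cd79a and the collagen gene Col1a1 were below the brightness filter of 7.52 log2, and Cd3e of T cells (7.70 to 7.95) and Siglech of plasmacytoid cells (7.68 to 7.87) were just above it. In such bulk samples, fewer cells of a type and less RNA per cell cannot be told apart. The correlation between the 2 replicates of a group over 12192 genes was 0.984 in DMSO, 0.985 in CLIK148, 0.961 in DMSO with CpG and 0.967 in CLIK148 with CpG.

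No gene had an interaction that passed the test in the main model, and 4 passed it in a fit to within-experiment differences. limma, fitted to all 14 arrays with a Benjamini-Hochberg adjustment over 12192 genes, called 0 of them at an adjusted p under 0.05 (0.00%), and 15 genes had an unadjusted p under 0.05 (0.123%). With the experiment as a block it called 0 again, with 61 genes at an unadjusted p under 0.05. Both counts are far under 0.05 of the genes tested, so these fits are cautious here and a count of 0 does not show that no gene differed. With the experiment fitted separately for unstimulated, CpG and TNF-alpha arrays, a setting chosen after seeing the data, 0 genes were called and 245 had an unadjusted p under 0.05 (2.01%). A limma fit to the 2 within-experiment differences alone called 4 genes, Malat1, Nedd4, Thoc2 and Ubxn4, all below 0 (0.0328%), whose values are given further on. P-values here measure the spread between 2 cultures a group.

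The intervals show what size of interaction these arrays allow. The median half-width of the 95% interval was 0.43 log2, and for 10518 genes the whole interval lay between -1 and 1. With the experiment fitted within each stimulus the median half-width was 0.21, 12187 genes had their interval between -1 and 1, and 11914 between -0.5 and 0.5. The planned fit counts a gap between experiments as error, and for responsive genes such as Il12b and Cxcl10 its intervals were several log2 units wide. Averaged over both experiments, 8 genes had an interaction beyond 0.5 log2 in size and 1 gene beyond 1.

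The 2 responses to CpG were close to each other gene by gene. limma called 234 genes changed with CpG in solvent (1.92%), 130 higher (1.07%) and 104 lower (0.853%), and 2420 with the replicate block (19.8%), of which 753 were higher (6.18%). After CLIK148 it called 99 (0.812%), 50 higher (0.410%) and 49 lower (0.402%), and 2075 with the block (17.0%), of which 491 were higher (4.03%). A count that is smaller in one arm is not a test of the difference, which the interaction is. The response in solvent and the response after CLIK148 share no array. Across the 12192 genes they correlated with r = 0.970 in experiment 1 and r = 0.856 in experiment 2, a description across genes, which are not independent replicates. The response was larger in experiment 1: its SD over genes was 0.546 log2 in solvent and 0.495 after CLIK148, against 0.267 and 0.261 in experiment 2. The ratio of the 2 SDs, CLIK148 over solvent, was 0.906 in experiment 1 and 0.980 in experiment 2 (mean 0.943 ± 0.0525, SD, n = 2). The gap between experiments in each arm was thus far larger than the gap between arms in each experiment.

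**Figure D1:**
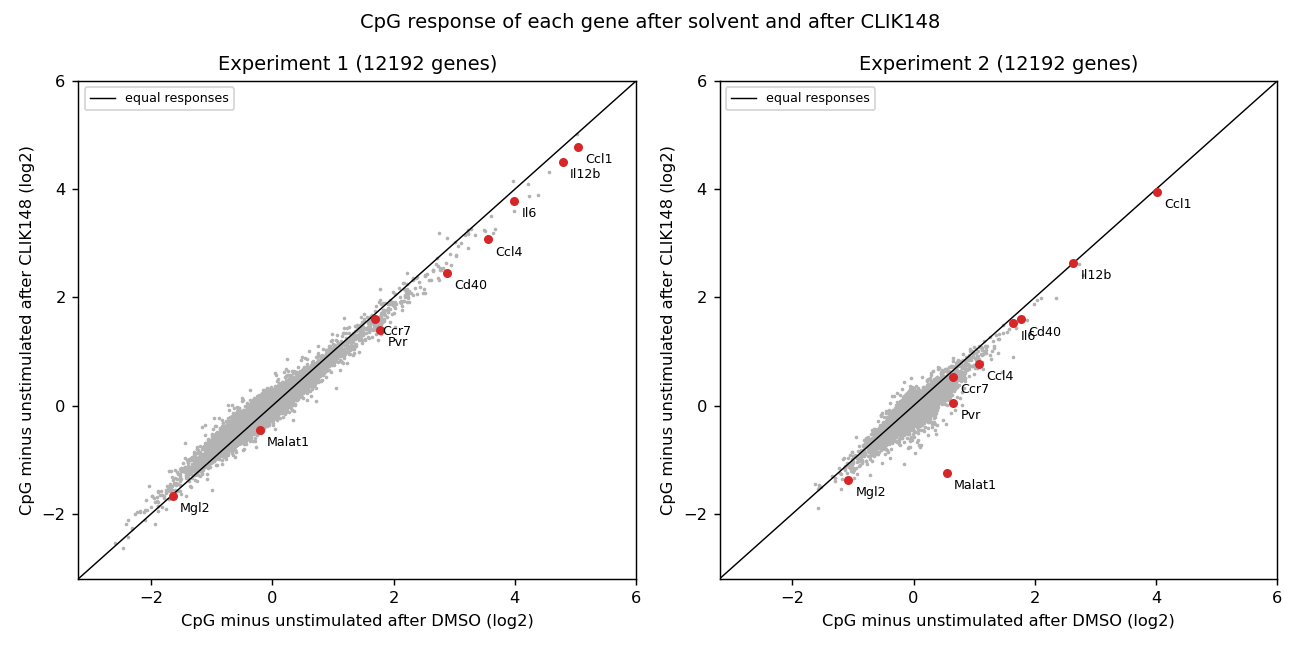
Response to CpG after CLIK148 (vertical axis, log2) against the response to CpG in solvent (horizontal axis, log2) for each of 12192 genes, with 1 panel for each experiment; the line marks equal responses. Genes lie along the line, from Il12b and Ccl1 at 4 log2 or more in experiment 1 down to Mgl2 below -1 in both, and the whole cloud is narrower in experiment 2.

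The same closeness held for genes picked by their CpG response in the other experiment, which avoids choosing and reading a gene on the same arrays. The 74 genes that CpG raised by at least 1 log2 in solvent in experiment 2 had, in experiment 1, a median response of 1.83 log2 in solvent and 1.77 after CLIK148. Their median interaction in experiment 1 was -0.13, and 77.0% lay below 0, against 38.6% of all genes. The 409 genes raised by at least 1 log2 in solvent in experiment 1 had a median of 0.47 in solvent and 0.44 after CLIK148 in experiment 2. Of these, 66.0% had an interaction below 0, against 69.8% of all genes, so the share below 0 among raised genes exceeded that of all genes in experiment 1 and not in experiment 2. For genes that CpG lowered by at least 1 log2, the medians were -1.35 in solvent and -1.26 after CLIK148 in experiment 1 (39 genes), and -0.44 and -0.56 in experiment 2 (382 genes). The order of the 2 arms among lowered genes was thus opposite in the 2 experiments.

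Gene by gene, the interaction of one experiment was not repeated in the other. The interactions of the 2 experiments correlated with r = -0.125 (Spearman's rho = -0.139) across the 12192 genes, which share no array between experiments, and 41.6% of genes had the same sign in both. The median interaction was 0.04 in experiment 1 and -0.07 in experiment 2. There were 3051 genes below 0 in both experiments (25.0%) and 2024 above 0 in both (16.6%). Beyond 0.25 log2 in size, 25 genes were below in both, 7 were above in both, and 127 were above in experiment 1 and below in experiment 2. With the genes ranked by level and cut into 4 equal bins, the share below 0 in both was at most 23.9% in the dimmer bins and 33.0% in the brightest one.

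**Figure D2:**
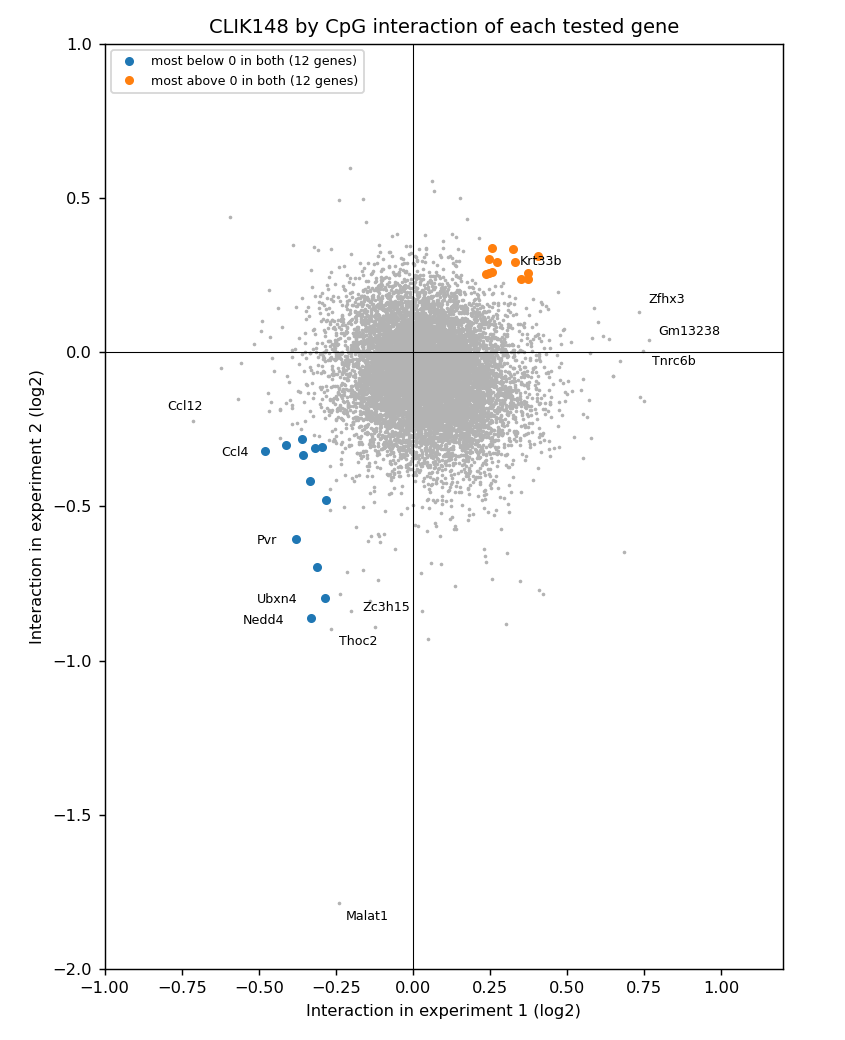
Interaction in experiment 2 (vertical axis, log2) against the interaction in experiment 1 (horizontal axis, log2), 1 point a gene, with the 12 genes whose values in both experiments lay farthest below 0 in blue and farthest above 0 in orange. The cloud has no rising trend, and Malat1 lies alone at -1.79 in experiment 2.

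The genes of the pathway that CpG enters had interactions on either side of 0. Ctsl, which encodes cathepsin L, measured 13.36 and 13.78 log2 in the DMSO arrays of experiments 1 and 2, 13.51 and 13.66 in DMSO with CpG, 13.31 and 13.83 in CLIK148, and 13.41 and 13.70 in CLIK148 with CpG. The 4 groups overlapped, and the interaction was -0.03 (95% interval -0.79 to 0.74). Transcript levels do not measure protease activity. Ctsb and Ctss, for the endosomal proteases cathepsin B and cathepsin S, had interactions of 0.04 and -0.01. Tlr9, the CpG receptor, was dim, between 7.62 and 7.78 log2 on the 8 arrays, with an interaction of 0.03 (interval -0.20 to 0.26). The adaptor Myd88 had an interaction of -0.10 (interval -1.45 to 1.26), with 0.05 in experiment 1 and -0.24 in experiment 2. Map3k7, the kinase TAK1, had the lowest mean of the Toll-like receptor 9 pathway list (-0.07 and -0.40), followed by Ap3b1, a subunit of the AP-3 adaptor that sorts endosomal cargo (-0.07 and -0.39). The highest was that of Irak1, a kinase that MyD88 recruits (0.33 and 0.01), while Irf5, an interferon regulatory factor, had 0.14 and -0.43. Of the 29 genes listed, 25 were tested and 0 passed the test. In both experiments 9 were below 0 (36%, beside 25.0% of all genes) and 2 above. The median was -0.04 beside -0.01 over all genes.

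The labels call CpG a pro-Th1 stimulus, and interleukin 12 is the cytokine best known for driving Th1 responses. Il12b, the p40 chain that interleukin 12 and interleukin 23 share, measured 9.82 and 11.11 in DMSO and 14.61 and 13.75 in DMSO with CpG. After CLIK148 it measured 10.03 and 10.98 without CpG and 14.54 and 13.62 with CpG. Every CpG array was above every unstimulated array in both pre-treatments, and the CpG arrays of the 2 pre-treatments overlapped. The mean response was 3.71 ± 0.67 log2 (SE, 13.1-fold, limma adjusted p = 0.0341) in solvent and 3.57 ± 0.67 (11.9-fold, limma adjusted p = 0.0570) after CLIK148. The interaction was -0.28 in experiment 1 and 0.00 in experiment 2, a mean of -0.14 with a 95% interval of -2.30 to 2.01, or -0.59 to 0.31 with the experiment fitted within each stimulus. With the replicate block Il12b rose in both pre-treatments (limma adjusted p = 0.00559 in solvent and 0.00809 after CLIK148). The interaction had a limma adjusted p of 1.00. Another bright probe set of Il12b responded by 5.94 and 3.15 log2 in solvent in experiments 1 and 2, with interactions of -0.43 and -0.12.

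The other chains of the interleukin 12 family were less responsive. Il12a, the p35 chain, had an interaction of -0.26, from -0.45 in experiment 1 and -0.06 in experiment 2. Il23a, the p19 chain of interleukin 23, had -0.36 and 0.17, of opposite sign in the 2 experiments. Over the 16 tested genes of the IL-12 family and Th1 mediators, 7 were below 0 in both experiments and 0 above in both. The 7 were 43.8% of the list, beside 25.0% of all genes. Their median interaction was -0.10, made of -0.24 in experiment 1 and -0.03 in experiment 2.

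Ccl1, a chemokine that acts through CCR8, had the largest CpG response averaged over experiments, with each tested gene read on its brightest probe set. It measured 8.66 and 8.44 in DMSO, 13.71 and 12.47 in DMSO with CpG, 8.73 and 8.42 in CLIK148, and 13.51 and 12.38 in CLIK148 with CpG. The response was 4.54 ± 0.62 log2 (SE, limma adjusted p = 0.0139) in solvent and 4.37 ± 0.62 (adjusted p = 0.0176) after CLIK148, so it rose in both. Its interaction was -0.17 (interval -2.16 to 1.83). Lad1, a filament-anchoring protein, and Nfkbiz, an atypical NF-kB inhibitor protein that promotes Il6 and Il12b transcription, also rose in both pre-treatments. Lad1 rose 5.05-fold in solvent and 4.46-fold after CLIK148 (limma adjusted p = 0.000228 and 0.000456), and its interaction was 0.01 in experiment 1 and -0.37 in experiment 2. Nfkbiz rose 5.72-fold and 5.28-fold (limma adjusted p = 0.00570 and 0.0101), with interactions of -0.13 and -0.10. Other bright probe sets of Nfkbiz had -0.34 and -0.58, and 0.41 and -0.72.

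Il6, the acute-phase cytokine, illustrates the gap between experiments. It measured 10.17 and 11.14 in DMSO, 14.15 and 12.78 in DMSO with CpG, 10.07 and 11.13 in CLIK148, and 13.85 and 12.65 in CLIK148 with CpG. Its response was 3.99 and 1.64 log2 in solvent and 3.78 and 1.52 after CLIK148 in experiments 1 and 2, so the experiments differed far more than the pre-treatments. In limma these responses had adjusted p = 0.0951 in solvent and 0.131 after CLIK148, and 0.0266 and 0.0349 with the replicate block. The interaction was -0.16, with an interval of -2.53 to 2.20 that narrowed to -0.80 to 0.47 with the experiment fitted within each stimulus. Il1b, a pyrogenic cytokine, had -0.26 and -0.11, Cd86, a co-stimulatory ligand, -0.29 and 0.07, and Ccr7, the lymph-node homing receptor, -0.09 and -0.12. Hmox1, an oxidative stress enzyme, had 0.02 and -0.01.

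**Figure D3:**
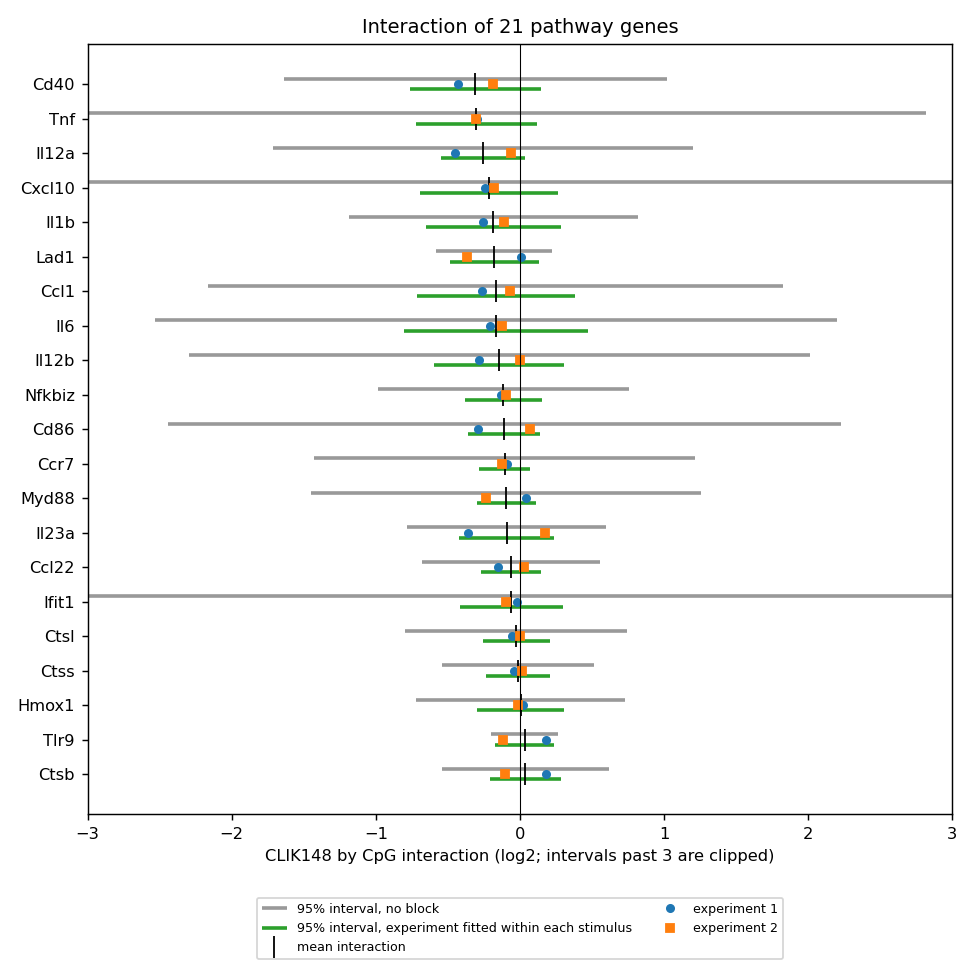
Interaction of 21 pathway genes (horizontal axis, log2), with each experiment's value as a point, the mean as a tick, and 95% intervals from limma without a block (grey) and with the experiment fitted within each stimulus (green). All 21 grey and all 21 green intervals include 0, and the green intervals are the narrower ones.

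The interaction genes farthest below 0 in both experiments included the inflammatory mediators Ccl4, Ccl3 and Tnf. Taking for each gene the smaller of its 2 experiments' values in size, the 12 farthest below 0 were Pvr, Nts, Ccser2, Nedd4, Ccl4, Rab12, Dnajc21, Ccl3, Tnf, Ubxn4, Nktr and Cd69. That smaller value was -0.38 for Pvr and -0.28 for Cd69, the last inside, and -0.28 for Lta, lymphotoxin alpha, the first outside. These values chose the genes and are given as a description. None passed the test of the interaction in limma, with or without the block. With the block, 5 of the 12 (Pvr, Ccl4, Ccl3, Tnf and Cd69) were called higher with CpG in solvent, against 0 without it. The solvent arrays took part in the choice of the 12, so nothing is read from that count beside the 6.18% of all genes. After CLIK148, 2 of the 12 were called changed with the block, Cd69 higher (1.25 log2) and Nedd4 lower (-0.78), beside 17.0% of all genes. The CLIK148 arrays took part in the choice as well, so nothing is read from this count either.

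Pvr, the CD155 adhesion receptor that natural killer and T cells recognise, had the largest such value. It measured 9.65 and 10.39 in DMSO, 11.42 and 11.04 in DMSO with CpG, 9.74 and 10.46 in CLIK148, and 11.13 and 10.51 in CLIK148 with CpG. The CLIK148 arrays were slightly above the DMSO arrays without CpG and below them with CpG in both experiments. The CpG response was 1.78 and 0.65 log2 in solvent and 1.40 and 0.05 after CLIK148, which gives interactions of -0.38 and -0.61. The mean of -0.49 had a 95% interval of -1.70 to 0.72 in the planned fit, and of -0.72 to -0.27 with the experiment fitted within each stimulus (limma adjusted p = 1.00). Of its probe sets, 5 were above the brightness filter, and all 5 were below 0 in both experiments, from -0.49 to -0.21 in the mean. Other genes of the 12 had less agreement. Mean interactions on other bright probe sets were 0.03 and -0.02 for Ccser2 and 0.04 and 0.23 for Nktr. They were -0.05 for Rab12 and -0.07 and -0.21 for Dnajc21.

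Ccl4 and Ccl3, inflammatory chemokines that attract leukocytes, had nearly parallel values. Ccl4 measured 9.92 and 9.86 in DMSO, 13.48 and 10.95 in DMSO with CpG, 9.94 and 10.01 in CLIK148, and 13.01 and 10.78 in CLIK148 with CpG. Its response was 3.56 and 1.09 log2 in solvent and 3.07 and 0.77 after CLIK148, with interactions of -0.48 and -0.32. Ccl3 had responses of 2.91 and 1.04 in solvent and 2.49 and 0.74 after CLIK148, with interactions of -0.41 and -0.30. In experiment 2 the interaction of Ccl3 came mostly from the unstimulated arrays, where CLIK148 was 0.28 log2 above solvent, while with CpG it was 0.02 below.

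Tnf, the cytokine, measured 10.70 and 9.77 in DMSO, 13.32 and 10.78 in DMSO with CpG, 10.67 and 9.87 in CLIK148, and 13.00 and 10.57 in CLIK148 with CpG. Its interactions were -0.30 and -0.31, and its intervals were -3.42 to 2.82 in the planned fit and -0.72 to 0.12 with the experiment fitted within each stimulus. Both experiments gave nearly the same value although the CpG response itself was 2.62 log2 in one and 1.01 in the other. Cd69, an early activation antigen, had interactions of -0.36 and -0.28. Rab12, a small GTPase of endosomal traffic, had responses of 0.75 and 0.17 in solvent and 0.43 and -0.14 after CLIK148. Nts, the peptide neurotensin, responded by 4.23 log2 in solvent and 3.88 after CLIK148 in experiment 1, but by only 0.39 and 0.06 in experiment 2, near the floor of the array.

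**Figure D4:**
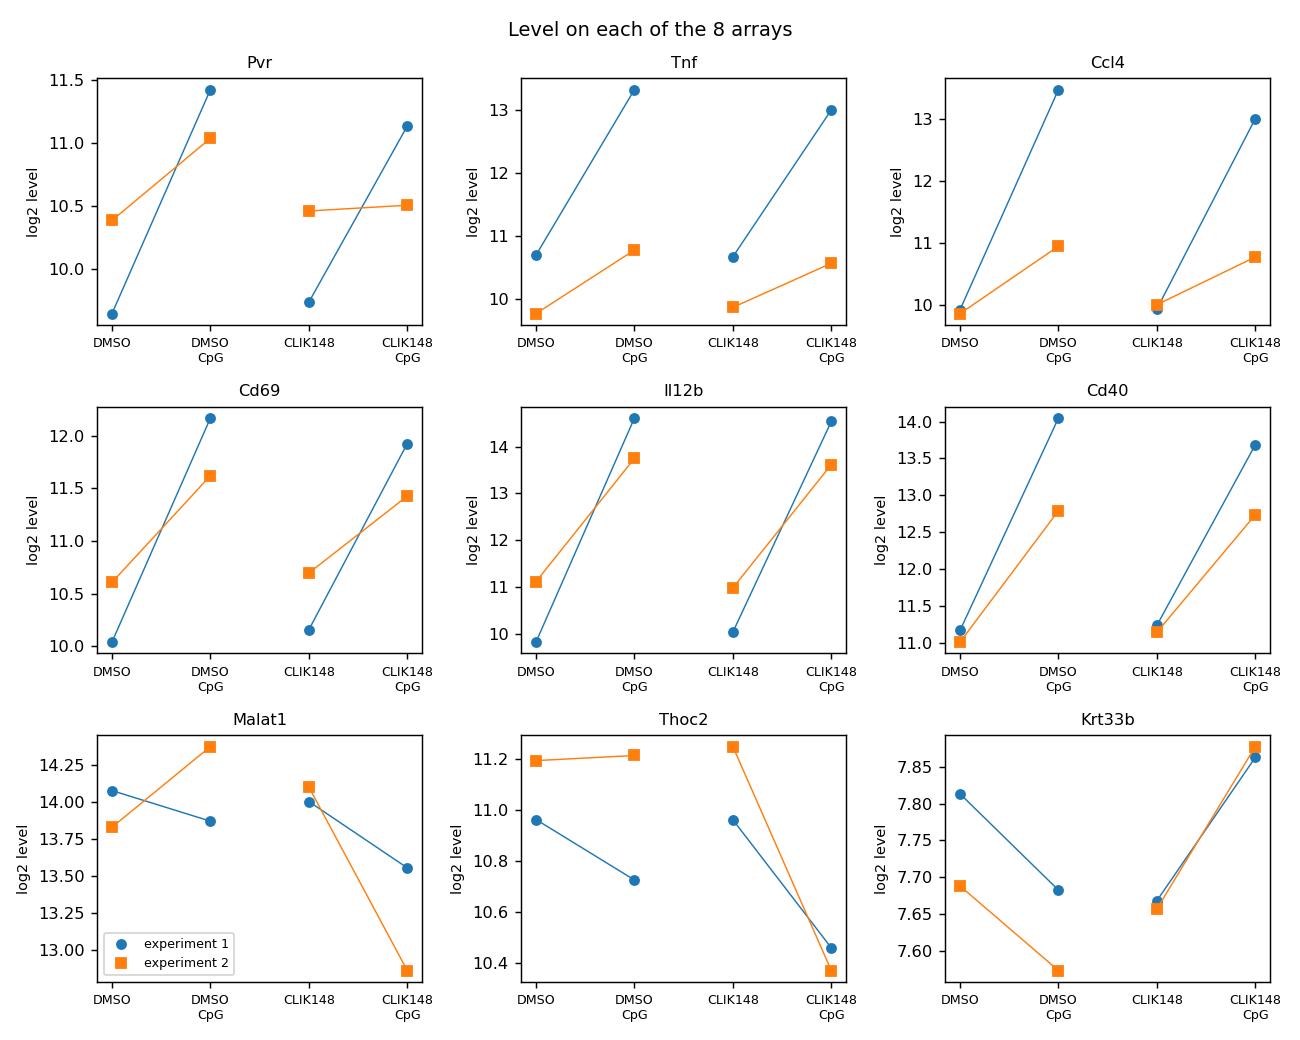
Log2 level (vertical axis) of selected genes in each of the 8 arrays of the layout, grouped by pre-treatment and stimulus, with 1 mark for each experiment and a line from the unstimulated to the CpG array of that experiment; the vertical axes differ between genes and do not start at 0. Pvr, Ccl4 and Tnf are higher with CpG in both pre-treatments and by less after CLIK148, while Malat1 is low on 1 array, CLIK148 with CpG in experiment 2.

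The 12 genes farthest above 0 in both experiments were dimmer. They were Krt33b, Ttc28, Zfp763, Tfr2, 3300002I08Rik, Prrc2c, Sh3d21, Zfp931, Jchain, Mcoln3, Atp4b and 1700088E04Rik, with a median level of 8.01 log2 and 6 of the 12 under 8, against a median level of 10.57 in the set below 0. All 12 had a response to CpG below 0 in solvent in both experiments, and 7 had a response above 0 after CLIK148 in both. The 12 were chosen by the response after CLIK148 minus that in solvent, which favours such signs. Nothing is therefore read from these counts, and the median solvent response of all genes was itself -0.11 and -0.01. Krt33b, a hair keratin, was the one with the largest smaller value: it measured 7.81 and 7.69 in DMSO, 7.68 and 7.57 in DMSO with CpG, 7.67 and 7.66 in CLIK148, and 7.86 and 7.88 in CLIK148 with CpG. Its interactions were 0.32 and 0.33 at a level close to the brightness filter of 7.52 log2. Mcoln3, an endolysosomal cation channel, had responses of -0.51 and -0.31 in solvent and -0.16 and -0.07 after CLIK148. None of the 12 passed the test in limma with or without the block.

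The largest mean interaction belonged to Malat1, an abundant nuclear long noncoding RNA, and most of it came from experiment 2. Malat1 measured 14.08 and 13.83 in DMSO, 13.87 and 14.38 in DMSO with CpG, 14.01 and 14.10 in CLIK148, and 13.56 and 12.86 in CLIK148 with CpG. The value of 12.86 was the lowest of the 14 arrays, and the next lowest, 12.98, was on the CA074Me with TNF-alpha array of experiment 2. The interaction of Malat1 was -0.24 in experiment 1 and -1.79 in experiment 2, where the response was 0.55 log2 in solvent and -1.24 after CLIK148. The mean of -1.01 became -0.67 without the CLIK148 with CpG array of experiment 2 and -0.76 without the DMSO with CpG array of that experiment. All 7 of its bright probe sets were below 0 in experiment 2, from -2.43 to -0.26, and 3 of them were above 0 in experiment 1.

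The next lowest means were those of Nedd4, a ubiquitin ligase (-0.33 and -0.86), Thoc2, a subunit of the THO complex of mRNA export (-0.26 and -0.90), Ubxn4, a factor of endoplasmic reticulum-associated degradation (-0.29 and -0.80), and Zc3h15 (-0.20 and -0.84). Each was lower on the CLIK148 with CpG array of experiment 2 than on the DMSO with CpG array of that experiment, by 0.81 to 0.89 log2. Each was also lower on the CA074Me with TNF-alpha array than on the DMSO with TNF-alpha array of experiment 2, as with Nedd4 at 11.75 against 12.46 and Zc3h15 at 10.61 against 11.31. The limma fit to within-experiment differences has 1 residual degree of freedom and takes nearly all of its spread from other genes. Its adjusted p was 9.10e-07 for Malat1, 0.00912 for Nedd4, 0.0130 for Thoc2 and 0.0304 for Ubxn4. All 4 were more than 2 times as large in experiment 2 as in experiment 1. Other bright probe sets of Nedd4, Thoc2 and Ubxn4 lay closer to 0, between -0.22 and 0.05.

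Quality measures of the array that these genes share lay at or near those of the others. The CLIK148 with CpG array of experiment 2 had a median level of 7.52 log2, and the gap of its 3' over its 5' control probe sets was 0.03 for Gapdh and 0.27 for Actb, where the 14 arrays spanned -0.06 to 0.03 and 0.18 to 0.32. Its Gapdh gap was the highest of the 14 arrays. Across all genes, the difference between CLIK148 and solvent under CpG correlated with that between CA074Me and solvent under TNF-alpha with r = 0.150 in experiment 2 and r = -0.035 in experiment 1, 2 comparisons that share no array. Whether RNA quality takes part in the values of Malat1 and these 4 genes was not tested.

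The 5 highest means were those of Zfhx3 (0.73 and 0.13), Gm13238 (0.77 and 0.04), Tnrc6b (0.75 and 0.01), Fn1 (0.59 and 0.14) and Ttc28 (0.41 and 0.31). For the first 4 the value came mostly from experiment 1. Mean interactions on other bright probe sets were 0.04 and 0.07 for Tnrc6b and 0.03 and 0.08 for Ttc28. They were 0.21 for Fn1 and from 0.12 to 0.33 for Zfhx3. Tnrc6b, a component of microRNA silencing complexes, measured 10.25 in DMSO, 8.81 in DMSO with CpG, 9.76 in CLIK148 and 9.07 in CLIK148 with CpG in that experiment, so the CLIK148 array was lower than the solvent array without CpG and higher with it. Fn1, the matrix protein fibronectin, was bright in experiment 1 (12.76 to 13.39) and dim in experiment 2 (8.87 to 9.06) on all arrays of the layout.

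Gene groups of the CpG response were described by their counts and medians, and in each of the 27 lists, with 451 tested genes in all, 0 genes passed the test of the interaction. The median interaction was below 0 in 25 lists, while the median of all genes was -0.01. Cyclic loess gave 18 lists below 0 and scaling to 8 reference genes gave 12, with all-gene medians of 0.00 and 0.03, so the sign of the smaller list medians depends on the scaling. Under all 3 scalings, 12 lists were below 0 and 21 were below the median of all genes. Of all genes, 25.0% were below 0 in both experiments and 16.6% above in both. In the brightest bin by level, 33.0% were below in both. No list was tested against these shares.

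Chemokines had the lowest list median. Of 23 tested, 11 were below 0 in both experiments (47.8%, beside 25.0% of all genes) and 2 above in both. The median was -0.14, made of -0.24 in experiment 1 and -0.02 in experiment 2. Besides Ccl4 and Ccl3, Ccl12 had -0.71 and -0.22, Cxcl9 had -0.41 and -0.17, Cxcl2 had -0.40 and -0.16, and Cxcl10, an interferon-inducible chemokine, had -0.24 and -0.18. The 2 above 0 in both were Cxcl5, a neutrophil attractant (0.33 and 0.16), and Cxcl14 (0.12 and 0.04). The median response of the chemokine list to CpG was 1.80 log2 in solvent and 1.53 after CLIK148 in experiment 1, and 0.38 and 0.30 in experiment 2.

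The NF-kB list had 13 of 21 genes below 0 in both experiments (61.9%) and 0 above in both, with a median of -0.09. The share below 0 in both was 25.0% over all genes and 33.0% in the brightest bin. Gadd45b, a stress-inducible regulator of MAP kinase signals, had -0.27 and -0.29, Cflar, an inhibitor of death-receptor signalling, had -0.10 and -0.35, and Icam1, an adhesion molecule, had -0.15 in both. Other bright probe sets of Gadd45b had -0.11 and -0.03, and -0.11 and 0.18. Gadd45b rose 2.68-fold with CpG in solvent (limma adjusted p = 0.0234), and its 2.21-fold response after CLIK148 had an adjusted p of 0.0602 without the block and 0.0141 with it. Maturation genes had a median of -0.11, with 12 of 24 below 0 in both (50%) and 0 above in both. Cd40, the co-stimulatory receptor, led them with responses of 2.88 and 1.78 log2 in solvent and 2.45 and 1.59 after CLIK148 (interaction interval -1.64 to 1.02). Its limma adjusted p for CpG was 0.0326 in solvent and 0.0659 after CLIK148, and 0.00815 after CLIK148 with the replicate block. Other bright probe sets of Cd40 had smaller interactions, -0.21 and -0.11, and -0.17 and -0.14. Among MAP kinase phosphatases and cytokine signal feedback genes, 10 of 17 were below 0 in both (58.8%), with Dusp2, a nuclear MAP kinase phosphatase, at -0.36 and -0.25.

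Cholesterol synthesis enzymes had a median interaction of -0.13. All 18 tested had a mean below 0, from -0.25 to -0.01. In both experiments 12 were below 0 (66.7%, beside 25.0% of all genes). Sc5d, a late sterol desaturase, measured 11.04 and 10.66 in DMSO, 11.12 and 11.25 in DMSO with CpG, 11.17 and 10.88 in CLIK148, and 10.95 and 11.26 in CLIK148 with CpG. Its interactions were -0.29 and -0.21, and in experiment 2 the value came from the unstimulated arrays, where CLIK148 was 0.22 log2 above solvent, with a gap of 0.01 under CpG. Lss, lanosterol synthase, had -0.15 and -0.33 and likewise lay 0.23 above solvent without CpG in experiment 2. Other bright probe sets of Sc5d were above 0 in experiment 1, with 0.26 and -0.32, and 0.22 and -0.05. Those of Lss had -0.07 and -0.13, and -0.08 and -0.05. The list median response to CpG was -0.01 in solvent and -0.14 after CLIK148 in experiment 1, and 0.55 and 0.38 in experiment 2.

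Type I interferon response genes, by contrast, had nearly the same response in both pre-treatments. Their median was 2.09 log2 in solvent and 2.00 after CLIK148 in experiment 1, and 0.49 and 0.47 in experiment 2. The median interaction of the 28 genes was -0.04. In both experiments 10 were below 0 (35.7%, beside 25.0% of all genes and 33.0% in the brightest bin) and 2 above. In the planned fit 1 of the 28 intervals lay between -1 and 1, beside 10518 of all 12192 genes. That fit therefore bounds these interactions only loosely. With the experiment fitted within each stimulus, a setting chosen after seeing the data, all 28 intervals lay between -0.5 and 0.5. So did those of 11914 of all 12192 genes. Ifit1, an antiviral effector, responded by 3.18 and 1.13 log2 in solvent and 3.16 and 1.03 after CLIK148. Interferon-inducible GTPases had a median interaction of -0.06 over 9 genes, and in the planned fit 0 of their intervals lay between -1 and 1. A difference between the interferon list and the chemokine list was not tested.

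Lists of proteases, lysosome and antigen presentation had medians near 0. Cathepsins and cystatins had a median of -0.01 over 20 genes, as all genes did, lysosomal genes -0.03 over 24, MHC class II presentation genes -0.03 over 12 and MHC class I presentation genes -0.05 over 16. In the planned fit, 17, 21, 7 and 14 of these intervals lay between -1 and 1, in the same order of lists. With the experiment fitted within each stimulus, every interval in these 4 lists lay between -0.5 and 0.5, as did those of 11914 of all 12192 genes. Oxidative stress and NRF2 genes had a median of 0.00 over 20 genes, and cell cycle genes -0.01 over 28.

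**Figure D5:**
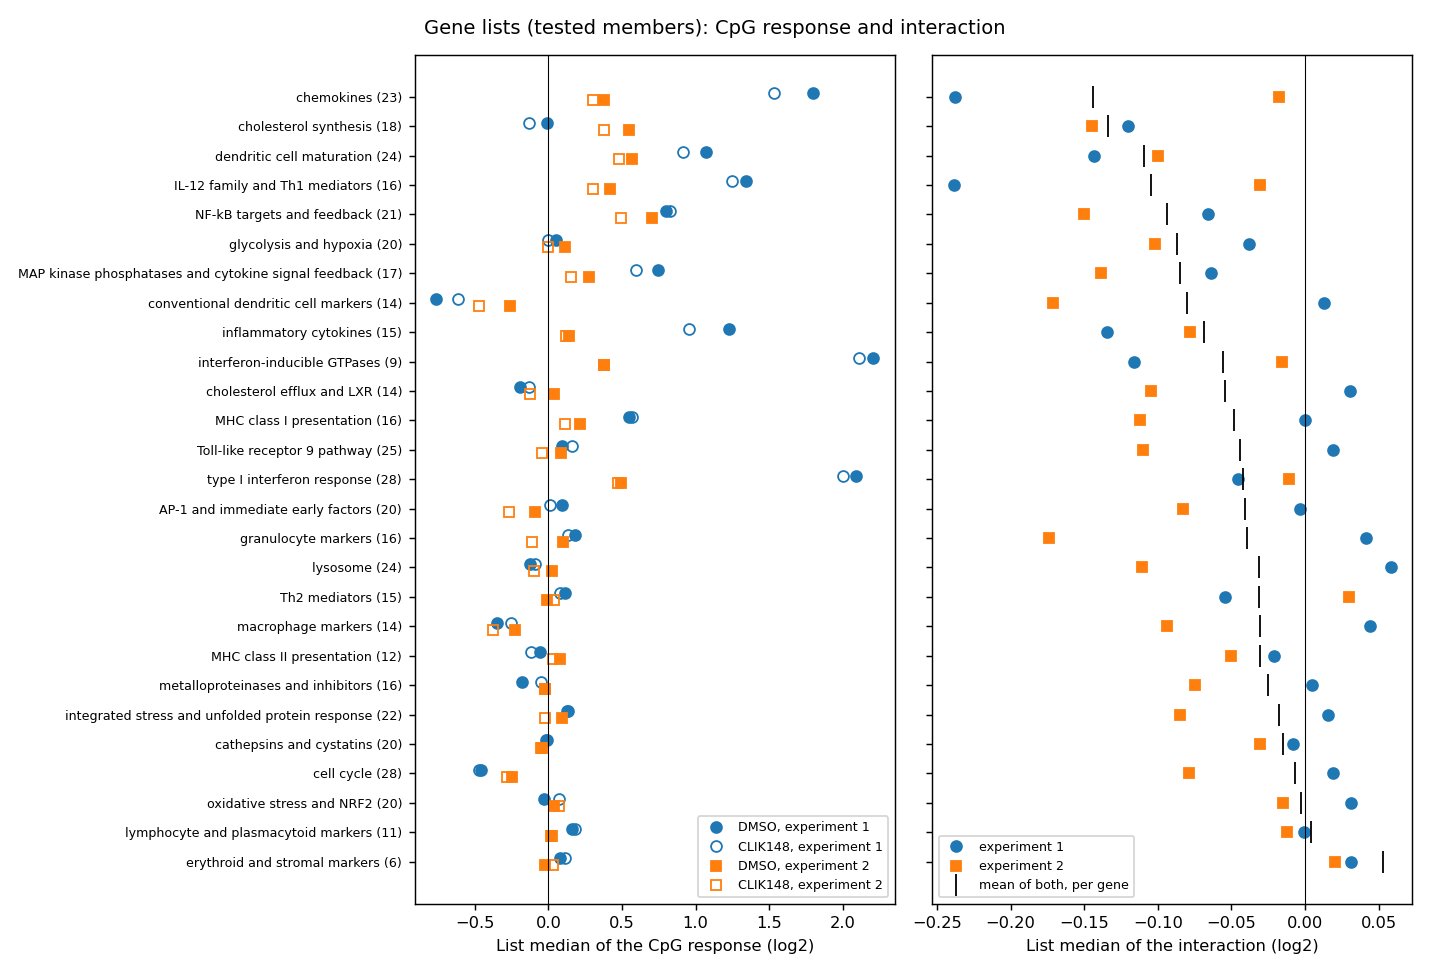
Each of the 27 gene lists is a line, with the number of tested genes in brackets: the left panel gives the list's median CpG response (log2) in solvent (filled) and after CLIK148 (open) in each experiment, and the right panel its median interaction (log2) in each experiment and in the mean of both (tick). Chemokines, cholesterol synthesis and maturation genes have the lowest means, all above -0.15, and most lists lie closer to 0.

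Markers of other cell types were set beside these values. Conventional dendritic cell markers (14 tested of 16) had a mean level of 10.91 and 10.80 log2 in DMSO, 10.85 and 10.79 in CLIK148, 10.09 and 10.39 in DMSO with CpG, and 10.06 and 10.22 in CLIK148 with CpG. Their summed linear level ranged from 38970 to 46509 without CpG and from 26295 to 29485 with it, over both pre-treatments. Macrophage markers (14 of 16) had a summed level from 67929 to 75861 without CpG and from 56473 to 72677 with it, and granulocyte markers (16 of 18) from 110399 to 122633 and from 114636 to 140638. Lymphocyte and plasmacytoid markers (11 of 16) ranged from 7987 to 10601 without CpG and from 11427 to 19370 with it, and erythroid and stromal markers (6 of 15) from 1874 to 2328 and from 2413 to 4382. A summed level follows its brightest members. The mean log2 level of lymphocyte and plasmacytoid markers was 8.32 and 8.55 in DMSO and 8.70 and 8.59 in DMSO with CpG. Their median response in solvent was 0.16 and 0.01 log2, and that of erythroid and stromal markers 0.08 and -0.02. The median interaction was -0.08 for dendritic cell markers, -0.03 for macrophage, -0.04 for granulocyte, 0.00 for lymphocyte and plasmacytoid and 0.05 for erythroid and stromal markers. Their part in the interactions above was not tested.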

How the data were processed

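The layout, gene lists and members were chosen with earlier results of these data known. The authors deposited log2 levels from RMA, run in R 3.0.1 per the submitters' processing notes, and its settings are not known here. Per the labels' protocols, 100 ng of column-purified total RNA went into an Affymetrix IVT labelling kit. The table holds 45101 probe sets on each of 14 arrays. Of these, 34945 had 1 gene, 932 several, 9160 none and 64 were controls, and 34741 of the first matched a RefSeq mouse gene. Each of 18193 genes was represented by its brightest probe set, and 12192 genes above the overall median of 7.52 log2 on at least 2 arrays were tested.

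limma 3.58.1 in R 4.3.3 fitted 7 group means on all 14 arrays (7 residual degrees of freedom) with 2-sided moderated tests and Benjamini-Hochberg adjustment over 12192 genes, called at 0.05. The code was tested on simulated data. Replicate differences of the 4 groups correlated with r from 0.492 to 0.935 over 6 pairs, so the replicate numbers, which follow the independent experiments of the design text, pair the arrays. Fits with the replicate block had 6 residual degrees of freedom, and 4 when fitted within each stimulus. Genes were named by rule: any called in the interaction, 12 in each direction by the smaller of both experiments' values, 2 a list, a set of pathway genes, and the 5 highest and 5 lowest means. No array was left out. With 2 arrays a group, their number limits the precision.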

Additional observations from a re-analysis of the deposited data

Results flagged for a closer look

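For 12 of the named genes the CpG response had one sign in solvent and the other after CLIK148, in both experiments alike. Over all genes, the 2 arms had the same sign in 86.8% of genes in experiment 1 and 71.2% in experiment 2. The share of all genes with the pattern of these 12 was not counted. All 12 were named for the sign or size of their interaction, which favours opposite signs in the 2 arms. Nothing is therefore read from their number. The interaction was tested in limma for each, and none passed at an adjusted p under 0.05. Above 0 were Krt33b (0.33), Prrc2c (0.31), 1700088E04Rik (0.31), Sh3d21 (0.30), Tfr2 (0.28), Jchain (0.27) and Atp4b (0.25), all of them chosen for values above 0 in both experiments. Below 0 were Zc3h15 (-0.52), Jund (-0.38), Gaa (-0.18), Pfkp (-0.17) and Pdia6 (-0.14), named for the size of their mean interaction. On other bright probe sets the interactions were 0.11 and 0.02 for Gaa and 0.03 and 0.08 for Pdia6. For Pfkp they were -0.13 and 0.22, and 0.10 and -0.95. For Prrc2c they were -0.33 and 0.05, and 0.33 and 0.09. Those of Zc3h15 were below 0 in both experiments. Jund, a subunit of the AP-1 transcription factor, had responses of 0.03 and 0.30 log2 in solvent and -0.12 and -0.31 after CLIK148. Gaa is the lysosomal acid alpha-glucosidase, Pfkp a phosphofructokinase and Pdia6 a protein disulphide isomerase, and for each the responses in both arms were within 0.25 log2 of 0.

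Probe sets without a single gene were outside the comparisons. Of 3044 such probe sets above the brightness filter, 24 changed with CpG in solvent, 4 changed with CpG after CLIK148, and 0 had an interaction that passed the test in limma, with 17 at an unadjusted p under 0.05.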

How the results depend on the processing

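The count of interactions called stayed at 0 with the replicate block, a random block, only the 8 arrays, array weights, cyclic loess, reference-gene scaling, no filter on dim genes, mean or all probe sets, a trended robust prior and, chosen after seeing the data, the block within stimulus, and was 0 without each array in turn. It was 4 on within-experiment differences. CpG responses moved: the count in solvent, 234, became 2420 with the replicate block, 1771 with a random block, 48 with array weights, 1 with only the 8 arrays and 0 on within-experiment differences (1829 at an unadjusted p under 0.05), and 1 to 1611 without one array, highest without DMSO with CpG replicate 2. After CLIK148 the count, 99, became 2075 with the replicate block, 1431 with a random block, 155 with array weights, 175 with cyclic loess, 60 with reference-gene scaling, 1 with only the 8 arrays and 0 on within-experiment differences (2998 at an unadjusted p under 0.05), and 1 to 335 without one array, highest without either DMSO with CpG array. Fewer arrays leave fewer degrees of freedom; other causes were not tested. Lists with a median below 0, 25 of 27, became 12 with reference-gene scaling and 8 to 22 without one array. The slope of 0.943 became 0.859 by least squares. Of 1199 values of named genes with all arrays 5 changed sign, among them Nktr (0.03 with the mean of its probe sets), and 4 became called; without one array 164 of 800 changed sign. Of 189 list medians 20 moved past the spread, and 145 of 216 without one array. The replicate block changed no interaction call, but it added calls of CpG responses, among them Il12b and Cd40 after CLIK148 and Il6 in both arms. With 2 arrays a group, an interaction smaller than its interval's half-width, a median of 0.43 log2, had an interval that included 0. A larger one could still go uncalled after adjustment over all genes. Krt33b, with a mean of 0.33 and an interval of 0.09 to 0.57, was not called.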
